A study of Arabidopsis thaliana with 12 samples.

Results

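The genes described here stood at least 4-fold lower under water deficit than in watered plants in each of 3 Arabidopsis thaliana genotypes. They were chosen from the array values themselves. A probe set was taken when its group mean under deficit minus its group mean in watered plants was at most -2 on the log2 scale in atx1, in MYO-OX and in WT, and a few genes were left out by name. Of 22746 probe sets that are not controls, 94 or 0.413% met the thresholds, 4 of them were left out, and 90 are members. The annotation of the array listed 1 gene for 43 members, several genes for 1 and none for 46, and the 43 single genes are 43 different loci. Only 4 of them have a symbol beyond the locus code (XTH16, CSLA03, TBL45 and UGT72E1). A member without a listed gene is given by its probe set number and no role.

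RNA came from vegetative rosettes of plants that were 4 weeks old when treatment began, hybridized to Affymetrix ATH1 arrays. The groups were the atx1 mutant under water deficit and watered, the MYO-OX line under water deficit and watered, and Columbia-0 wild type (WT) under water deficit and watered, with 2 biological replicates in each of the 6 groups and 12 arrays in all. For deficit, water was withheld until the relative water content reached 65%. ATX1 is a histone methyltransferase of the trithorax class, and MYO-OX is named for overexpression of MYO1, a myotubularin homolog. The allele and background of atx1, and the promoter and number of lines behind MYO-OX, are not given in the sources used here. Whole rosettes were sampled, so fewer cells of a type and less RNA per cell cannot be told apart.

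Plants that lose water slow the expansion of their leaves early. Genes for wall remodelling, for secreted lipid-binding proteins and for other functions of growing tissue are commonly lowered, while genes for protective proteins are raised. ATX1 places methyl marks on histone H3 at active genes, and myotubularins remove phosphate from membrane phosphoinositides. Levels below are log2 signals. A step of 1 is a doubling, and levels of different probe sets are not compared, because each probe set has its own response.

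The label of the tissue was checked with marker genes. Of 16 leaf mesophyll markers, 1 was measured under its name, the Rubisco activase gene RCA, which lay at or above 99.4% of probe sets in every group. The root hair gene EXPA7, 1 of 10 root markers, lay between 21.8% and 34.3%. Of 6 epidermal markers only the symbol FDH was found, at or above 90.8% and higher under deficit than watered in each genotype. Markers were matched by name, and the locus behind FDH is not given here. Nothing about the epidermis is therefore read from it. The guard cell factor gene FMA (54.2% to 66%) was the 1 measured of 8 guard cell markers, and the trichome gene TRY (41.3% to 60.8%) the 1 measured of 5 trichome markers. None of the markers of vascular tissue, flower or seed was measured under its name, and no marker was a member. Control probe sets differed between groups. Spiked hybridization controls averaged 10.03 and 9.66 on the atx1 deficit arrays and between 8.17 and 9.61 on the other 10. The GAPDH probe sets for the 3' end of the transcript minus those for the 5' end, a measure of RNA integrity, gave 1.74 and 1.19 on the atx1 deficit arrays and at most 1.09 on the others.

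The size of the difference between water states chose the members, so it is described here without a test. Over the 90 members the median deficit-minus-watered difference was -2.33 in atx1, -3.72 in MYO-OX and -3.70 in WT, which is 5.02-fold, 13.2-fold and 13.0-fold lower. Over all probe sets the medians were -0.01, 0.04 and 0.01. The lowest member differences were -4.81 in atx1, -5.50 in MYO-OX and -6.87 in WT, and 2 members were at least 16-fold lower in all 3 genotypes. The difference was smallest in atx1 for 78 members, in MYO-OX for 5 and in WT for 7. It was smaller in atx1 than in WT for 83 of the 90, and the atx1 difference was a median 0.697 of that in WT, from 0.347 to 1.72. In MYO-OX it was smaller than in WT for 46 members, about as many as not.

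**Figure D1:**
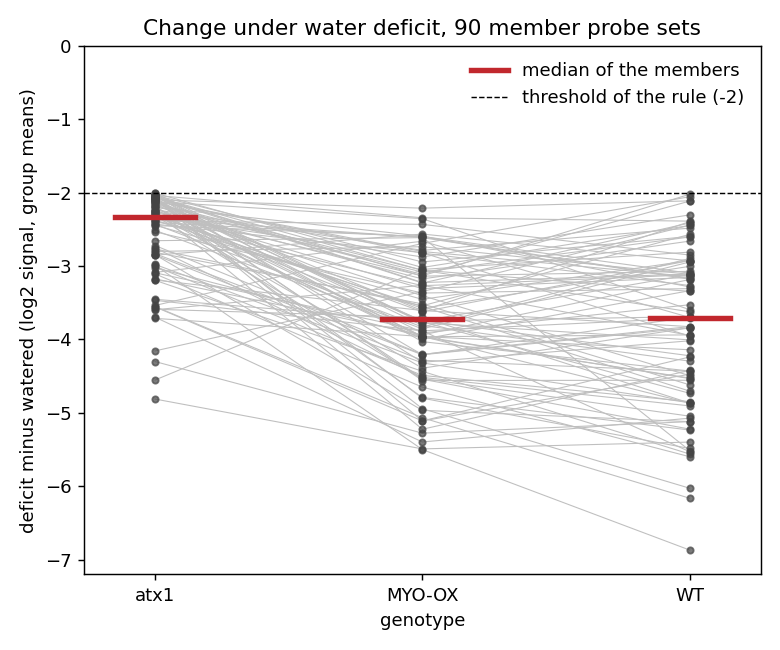
Each grey line joins the deficit-minus-watered differences (log2 signal, group means of 2 arrays) of 1 member in atx1, MYO-OX and WT, with red bars at the medians of -2.33, -3.72 and -3.70 and the threshold of -2 dashed. The atx1 points crowd under the threshold, and the MYO-OX and WT points reach further down.

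Fewer probe sets met the threshold in atx1 than in the other genotypes. Of all probe sets, 0.55% were at most -2 in atx1, 4.79% in MYO-OX and 3.92% in WT. The 727 probe sets (3.2%) at most -2 in both MYO-OX and WT included the 94 that also met it in atx1, while 379 lay between -2 and -1 in atx1 and 254 above -1. Conversely, 94 of the 125 probe sets at most -2 in atx1, or 75.2%, also met it in MYO-OX and WT. Within 0.1 of the threshold lay 20 members in atx1, 0 in MYO-OX and 2 in WT. The members nearest inside were 259632_at at -2.01, AT5G63180 at -2.01 and AT1G33811 at -2.02, all in atx1. Just outside were AT5G61660 at -1.99 in WT, and AT3G02640 and MSRB9 at -1.98 in atx1. Leaving out replicate 1 of atx1 under deficit gave 153 probe sets by the same rule, 84 of them among the 90. Leaving out replicate 2 of atx1 under deficit gave 70, with 56 of the 90, and leaving out replicate 1 of watered atx1 gave 82, with 61 of the 90, so many memberships rest on single arrays.

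In watered plants the members were among the brighter probe sets. Above the 75th percentile of the group lay 69 members in watered atx1, 82 in watered MYO-OX and 80 in watered WT, and none lay at or below the 25th percentile. Under deficit the median member lay at or above 50% of probe sets in atx1, 45.5% in MYO-OX and 42.4% in WT. At or below the 25th percentile lay 5 members under deficit in atx1, 4 in MYO-OX and 9 in WT. The array values carry no detection call. Whether such dim probe sets exceeded background is therefore not known, and the folds of these members are not exact. Deficit and watered arrays did not overlap for 89 members in atx1, 90 in MYO-OX and 90 in WT (23.6%, 27.4% and 33% of all probe sets lay lower without overlap). The rule used this difference, so nothing is read from these counts. The exception was 265837_at in atx1, at 6.64 and 4.71 under deficit against 10.03 and 5.81 watered.

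**Figure D2:**
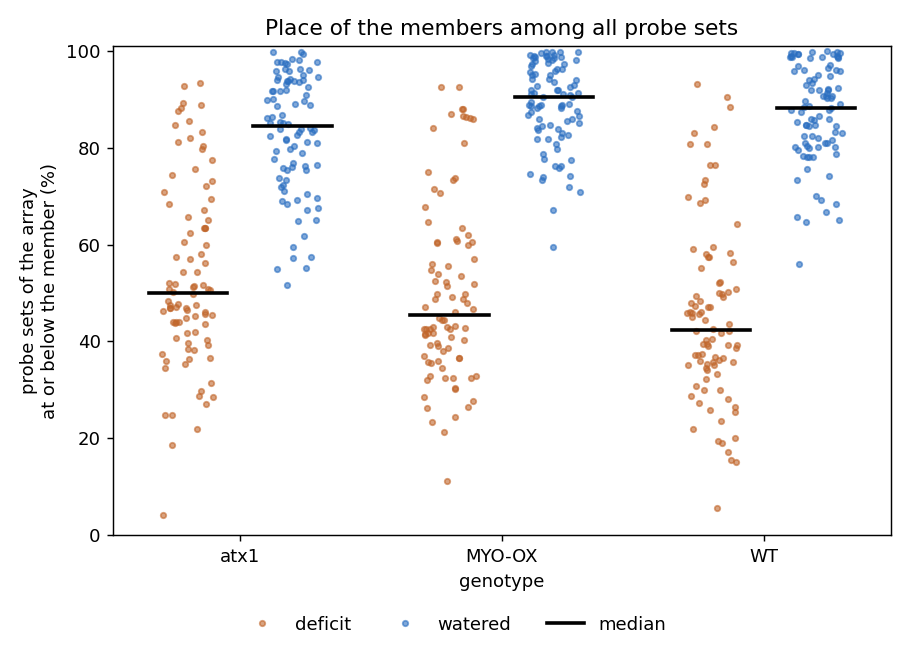
Percent of all probe sets at or below each of the 90 members (points) by group mean, deficit in brown and watered in blue for atx1, MYO-OX and WT, with medians as black bars. The watered medians stand at 84.5%, 90.4% and 88.3% and the deficit medians at 50%, 45.5% and 42.4%.

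The named genes are taken by role. For genes known here by a locus code alone, the family given is general knowledge and not part of the annotation used, and the grouping was made after the values were seen. The first group, 6 genes, encodes secreted lipases, which modify lipids, and lipid transfer proteins, which bind lipids such as those of the cuticle. Their median difference was -2.37 in atx1, -3.73 in MYO-OX and -4.66 in WT. AT1G29660, a GDSL-type esterase/lipase gene, had log2 signals of 8.18 and 7.07 under deficit against 10.69 and 10.54 watered in atx1, 5.63 and 6.54 under deficit against 11.83 and 11.34 watered in MYO-OX, and 4.50 and 5.07 under deficit against 12.04 and 11.27 watered in WT. This was the largest lowering of any probe set in WT, 117-fold, and the deficit arrays of atx1 stayed above those of both other genotypes. AT1G33811, another GDSL-type gene, had 6.03 and 5.50 under deficit against 7.77 and 7.79 watered in atx1, 4.99 and 4.86 under deficit against 8.79 and 9.13 watered in MYO-OX, and 4.23 and 4.50 under deficit against 8.67 and 8.92 watered in WT. Its watered level was lower on both atx1 arrays than on any other watered array, and its deficit level higher on both. AT2G45180, of the lipid transfer protein family, had 10.39 and 9.64 under deficit against 12.95 and 12.71 watered in atx1, 9.08 and 9.50 under deficit against 12.79 and 12.82 watered in MYO-OX, and 7.82 and 8.41 under deficit against 12.97 and 12.50 watered in WT. Watered arrays of the 3 genotypes lay within 0.47 of each other, and under deficit every atx1 array lay above every MYO-OX array and every MYO-OX array above every WT array.

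AT5G48490, also of the lipid transfer protein family, had 8.67 and 8.13 under deficit against 10.94 and 10.62 watered in atx1, 9.26 and 7.81 under deficit against 12.44 and 11.75 watered in MYO-OX, and 7.29 and 7.03 under deficit against 12.26 and 11.47 watered in WT. The watered atx1 arrays were the lowest watered ones. AT2G10940, of the same family, had 10.39 and 7.46 under deficit against 10.67 and 11.89 watered in atx1, 9.13 and 8.54 under deficit against 10.14 and 12.75 watered in MYO-OX, and 5.61 and 7.62 under deficit against 11.46 and 12.80 watered in WT. Replicates of this gene differed by 0.59 to 2.93 within the 6 groups. AT1G62500, the remaining gene of this family, had differences of -2.08 in atx1, -3.91 in MYO-OX and -3.53 in WT, with both atx1 deficit arrays above those of the other genotypes.

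**Figure D3:**
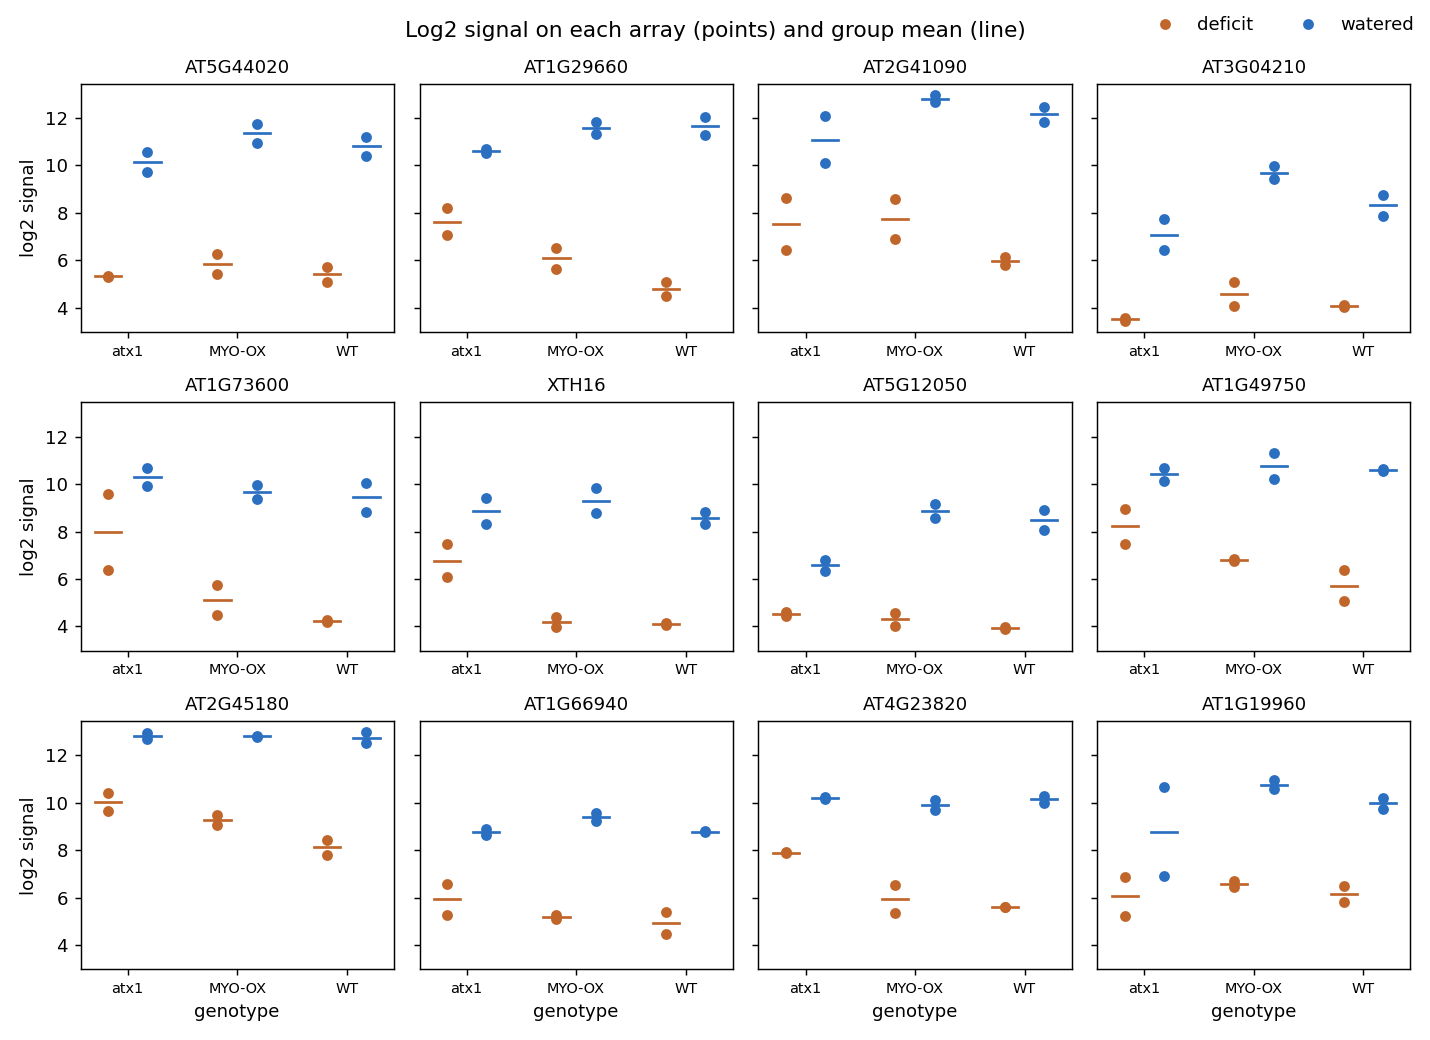
Log2 signal on each array (points) with the group mean (line) for the 12 named genes with the lowest mean difference, deficit in brown to the left of watered in blue, for atx1, MYO-OX and WT. In AT1G29660, AT2G41090, AT1G73600, XTH16, AT5G12050, AT1G49750, AT2G45180 and AT4G23820 the atx1 deficit points lie above the WT deficit points. In AT1G29660, AT3G04210 and AT5G12050 the watered atx1 points lie below the watered WT points.

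The second group, 8 genes, acts in the cell wall. Their median difference was -2.10 in atx1, -3.95 in MYO-OX and -3.92 in WT. XTH16, for a xyloglucan endotransglucosylase that cuts and rejoins wall xyloglucan, had 7.49 and 6.06 under deficit against 9.42 and 8.31 watered in atx1, 3.99 and 4.40 under deficit against 9.83 and 8.78 watered in MYO-OX, and 4.06 and 4.13 under deficit against 8.83 and 8.31 watered in WT. Its deficit arrays in MYO-OX and WT lay at the low end of the scale, with 21.3% and 20% of probe sets at or below the mean, so these folds are not exact. AT4G23820, a pectin lyase-like gene, had 7.87 and 7.93 under deficit against 10.17 and 10.25 watered in atx1, 5.36 and 6.52 under deficit against 9.70 and 10.12 watered in MYO-OX, and 5.62 and 5.62 under deficit against 10.29 and 10.001 watered in WT. Replicates of atx1 lay within 0.07 of each other, and the watered groups of atx1 and WT overlapped. AT5G63180, a further pectin lyase-like gene, had 8.45 and 6.98 under deficit against 10.01 and 9.44 watered in atx1, 5.37 and 5.17 under deficit against 8.45 and 9.60 watered in MYO-OX, and 4.24 and 4.56 under deficit against 9.35 and 8.92 watered in WT. Here the atx1 deficit arrays were at least 1.61 above every other deficit array. CSLA03, of the cellulose synthase-like A family that makes mannan backbones, had 4.60 and 4.25 under deficit against 7.37 and 7.82 watered in atx1, 3.81 and 5.09 under deficit against 8.98 and 7.79 watered in MYO-OX, and 4.53 and 4.05 under deficit against 8.20 and 6.75 watered in WT. Unlike the wall genes before it, CSLA03 had overlapping deficit arrays in all 3 genotypes. TBL45, of a family linked to acetylation of wall polysaccharides, had 6.71 and 6.01 under deficit against 8.29 and 8.74 watered in atx1, 5.38 and 5.32 under deficit against 9.70 and 8.92 watered in MYO-OX, and 4.70 and 4.99 under deficit against 9.22 and 8.76 watered in WT. The deficit arrays of atx1 lay above those of MYO-OX, and those of MYO-OX above those of WT. The other wall genes were AT3G53190 (pectin lyase-like), AT4G25260 (pectin methylesterase inhibitor family) and AT2G37130 (class III peroxidase), with differences between -2.07 and -4.21.

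Lists drawn up by words in the annotation gave few members, and most loci carry no descriptive name. Of 263 probe sets in any of 14 lists, the members were XTH16, 1 of 29 in the list for wall loosening, and CSLA03, 1 of 23 in the list for pectin and other wall enzymes. In each of these lists 1 probe set was at most -2 in atx1, 6 in MYO-OX and 7 in WT. Their median differences over all measured probe sets were close to 0 (-0.22 and -0.22 in WT), far from the values of these 2 members. The lists for light harvesting (31 probe sets), defence proteins (38), transcription factors (63) and transporters (19) held 0 members, and so did the 8 smaller lists.

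The third group holds 7 genes for other enzymes, with median differences of -2.39 in atx1, -3.27 in MYO-OX and -3.12 in WT. AT5G44020, for a HAD-type acid phosphatase, had 5.36 and 5.30 under deficit against 9.71 and 10.58 watered in atx1, 5.43 and 6.27 under deficit against 11.75 and 10.94 watered in MYO-OX, and 5.72 and 5.10 under deficit against 11.21 and 10.40 watered in WT. It had the lowest mean difference of all members and the lowest in atx1 of any probe set, 28.1-fold in atx1, 45.0-fold in MYO-OX and 42.2-fold in WT. Deficit arrays of WT overlapped those of atx1 and of MYO-OX. AT1G04040, for a phosphatase of the same kind, had differences of -2.80 in atx1, -2.74 in MYO-OX and -3.11 in WT. AT1G73600, for a methyltransferase acting on phosphoethanolamine on the route to phosphatidylcholine, had 9.59 and 6.39 under deficit against 10.69 and 9.91 watered in atx1, 4.46 and 5.77 under deficit against 9.36 and 9.95 watered in MYO-OX, and 4.18 and 4.26 under deficit against 10.06 and 8.82 watered in WT. The atx1 deficit arrays differed from each other by 3.21, and even the lower one lay above every other deficit array. The glutaredoxin family gene AT1G06830 had differences of -4.16 in atx1, -3.35 in MYO-OX and -2.44 in WT, one of 3 members with the largest difference in atx1. UGT72E1, for a glucosyltransferase, had -2.39 in atx1, -3.27 in MYO-OX and -3.12 in WT. AT3G52500, of the aspartyl protease family, had -2.05 in atx1, -3.22 in MYO-OX and -3.11 in WT, and AT3G50270, of the HXXXD-type acyltransferases, had -2.15 in atx1, -3.06 in MYO-OX and -3.34 in WT.

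The fourth group, 5 genes, is linked to signalling and defence. AT2G41090, for a calmodulin-like calcium sensor, had 8.65 and 6.43 under deficit against 12.08 and 10.10 watered in atx1, 6.91 and 8.57 under deficit against 12.95 and 12.67 watered in MYO-OX, and 5.81 and 6.15 under deficit against 12.46 and 11.83 watered in WT. Replicates in atx1 differed by 2.22 under deficit and 1.98 when watered, and the atx1 and WT deficit arrays did not overlap. AT3G04210, for a protein with the TIR and NBS domains of plant immune receptors, had 3.58 and 3.45 under deficit against 7.72 and 6.42 watered in atx1, 4.09 and 5.07 under deficit against 9.96 and 9.42 watered in MYO-OX, and 4.02 and 4.12 under deficit against 8.76 and 7.87 watered in WT. Under deficit the level in atx1 was at or above only 4.15% of probe sets, so its fold there is not exact. AT1G49750, of the leucine-rich repeat family, had 8.96 and 7.47 under deficit against 10.69 and 10.13 watered in atx1, 6.84 and 6.77 under deficit against 10.23 and 11.30 watered in MYO-OX, and 5.07 and 6.38 under deficit against 10.54 and 10.64 watered in WT. The watered groups overlapped in all 3 genotypes and the deficit groups did not. AT3G05730, a defensin-like gene, had 4.61 and 4.01 under deficit against 9.63 and 8.10 watered in atx1, 7.85 and 7.92 under deficit against 11.74 and 10.13 watered in MYO-OX, and 7.62 and 7.40 under deficit against 11.37 and 9.26 watered in WT. It ran the other way from most members, with atx1 deficit arrays at least 2.79 below all other deficit arrays. AT2G19970, of the CAP superfamily of secreted proteins, had differences of -2.19 in atx1, -3.08 in MYO-OX and -2.60 in WT.

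Further named members have no role given. AT5G12050 had 4.59 and 4.42 under deficit against 6.35 and 6.79 watered in atx1, 4.03 and 4.59 under deficit against 9.17 and 8.57 watered in MYO-OX, and 3.91 and 3.96 under deficit against 8.93 and 8.06 watered in WT. Both watered atx1 arrays lay below every other watered array. AT1G66940 had 6.58 and 5.28 under deficit against 8.65 and 8.88 watered in atx1, 5.29 and 5.09 under deficit against 9.58 and 9.21 watered in MYO-OX, and 4.49 and 5.38 under deficit against 8.75 and 8.80 watered in WT. The watered arrays of atx1 and WT overlapped. AT4G37240 had 6.49 and 5.08 under deficit against 8.11 and 7.51 watered in atx1, 4.39 and 4.15 under deficit against 9.15 and 8.01 watered in MYO-OX, and 4.27 and 4.38 under deficit against 8.96 and 7.73 watered in WT, with watered arrays of the 3 genotypes overlapping. AT1G19960 had 6.87 and 5.24 under deficit against 10.65 and 6.91 watered in atx1, 6.44 and 6.69 under deficit against 10.96 and 10.57 watered in MYO-OX, and 5.81 and 6.47 under deficit against 10.21 and 9.73 watered in WT. The watered atx1 arrays stood 3.74 apart, and the lower of them lay 0.03 above the higher atx1 deficit array. AT4G16980 was measured by 2 probe sets that disagreed. The member had differences of -3.09 in atx1, -2.66 in MYO-OX and -3.70 in WT, whereas the other probe set, 245459_at, had -0.15, -0.12 and -0.01. The member 252562_s_at is listed for several histone H4 genes, whose products pack DNA. It had -2.16 in atx1, -3.11 in MYO-OX and -2.11 in WT and cannot be assigned to 1 of them.

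The 46 members without a listed gene reached down to -4.30 in atx1, -5.40 in MYO-OX and -6.03 in WT, with median differences of -2.41 in atx1, -3.75 in MYO-OX and -3.83 in WT. The lowest mean differences among them belonged to 265342_at, with -4.30 in atx1, -5.28 in MYO-OX and -5.12 in WT, and 246011_at, with -3.70 in atx1, -5.40 in MYO-OX and -5.07 in WT. The 43 loci were spread over the genome. In gene order no 2 of them lay within 5 protein-coding genes of each other. Median gene length was 1844 bases for the members with 1 gene and 2105 bases over the 13286 genes with a length that have a probe set of their own.

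Replicates of the members were more spread than those of all probe sets. The median SD over members was 0.483 in atx1 under deficit, 0.299 in MYO-OX under deficit and 0.231 in WT under deficit, against 0.192, 0.204 and 0.13 over all probe sets. In watered plants it was 0.343 in atx1, 0.505 in MYO-OX and 0.461 in WT, against 0.199, 0.297 and 0.156 over all probe sets. Many members deviated the same way within a group. Replicate 1 lay above replicate 2 for 72 of 90 members in atx1 under deficit (median 0.55) and for 71 in watered WT (median 0.53), where 52.4% and 55.6% of all probe sets did so. Under deficit it lay above for 39 members in MYO-OX and for 33 in WT, where 50.8% and 56.8% of all probe sets did so.

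Genotypes were tested against each other within a water state. The comparison describes in which water state the levels of the genotypes differed. The differences were fitted with limma over all 22746 probe sets, and a probe set was called at a Benjamini-Hochberg adjusted p under 0.05. The rule bounds the difference between water states within each genotype, so levels of the members are not free of it. In the 83 members with a smaller difference in atx1 than in WT, atx1 must lie higher under deficit, lower when watered, or both. The directions and shares of members below therefore partly follow from how they were chosen. Nothing is read from their excess over the shares of all probe sets. Under deficit, 21 of the 90 members were called between atx1 and WT, 19 higher and 2 lower in atx1, or 23.3% of members. Of all probe sets 12.1% were called, 7.36% higher and 4.73% lower. At an unadjusted p under 0.05 there were 39 members, where 26.2% of all probe sets reached it. The median difference was 0.64 over members and 0.01 over all probe sets, and 72 members lay above 0. With each array centred on its median, the median of all probe sets moved to -0.22 and that of the members to 0.40, and 17 members were called higher and 2 lower. Both atx1 arrays lay above both WT arrays for 50 members and below them for 12, where 32.9% and 28.8% of all probe sets did so.

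Among the members called higher in atx1 under deficit, AT1G73600 differed by 3.77 (SE 0.941, limma adjusted p = 0.0367). The pectin lyase-like AT5G63180, at 8.45 and 6.98 in atx1 against 4.24 and 4.56 in WT, differed by 3.32 (SE 0.515, limma adjusted p = 0.00638). AT1G29660, the GDSL-type gene, differed by 2.84 (SE 0.46, limma adjusted p = 0.00748) and XTH16 by 2.69 (SE 0.553, limma adjusted p = 0.0188). AT1G49750 differed by 2.49 (SE 0.585, limma adjusted p = 0.0302). Of the members with no listed gene, 247162_at was at 9.19 and 9.54 in atx1 against 5.38 and 6.02 in WT, a difference of 3.66 (SE 0.379, limma adjusted p = 0.00123). It had the smallest adjusted p of all members. The probe set 266790_at, at 8.72 and 8.31 in atx1 against 4.70 and 5.98 in WT, differed by 3.18 (SE 0.374, limma adjusted p = 0.00212). The probe set 253040_at, at 7.57 and 6.43 in atx1 against 4.29 and 4.69 in WT, differed by 2.51 (SE 0.568, limma adjusted p = 0.0262). In none of these 3 did the arrays of atx1 and WT overlap. Outside the 10 largest differences, AT4G23820 differed by 2.28, AT3G18050 by 2.06 and AT2G45180 by 1.90 (limma adjusted p = 0.00529, 0.00197 and 0.00818). The groups above hold only members and were formed after the values were seen, so nothing is read from their shares. In them, 4 of 6 lipase and lipid transfer genes and 4 of 8 wall genes were called higher, where 7.36% of all probe sets were. With the GAPDH difference of each array as a covariate these counts were 0 of 6 and 1 of 8, and without WT deficit replicate 1 they were 0 of 6 and 0 of 8. The 8 called genes were AT1G29660, AT1G33811, AT2G45180 and AT1G62500 in the first group and XTH16, AT4G23820, AT5G63180 and TBL45 in the second. All 6 and all 8 lay above 0 in the direction of atx1, with medians of 1.70 and 1.47. In the lists drawn from the annotation, 3 of 29 wall loosening probe sets were called higher and 1 lower, and 6 of 23 pectin and other wall enzyme probe sets were called higher and none lower by limma.

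Members called lower in atx1 under deficit were 257008_at, at 4.31 and 4.30 in atx1 against 7.96 and 9.08 in WT, a difference of -4.22 (SE 0.613, limma adjusted p = 0.00494), and the defensin-like AT3G05730, a difference of -3.20 (SE 0.777, limma adjusted p = 0.0338). In watered plants 3 of 90 members were called, all lower in atx1, where 2.2% of all probe sets were called, 1.2% higher and 1.01% lower. They were 257008_at, at 7.44 and 6.03 in atx1 against 12.78 and 12.17 in WT, a difference of -5.74 (SE 0.613, limma adjusted p = 0.00357), then 262947_at, at 9.51 and 10.02 in atx1 against 11.56 and 12.12 in WT, a difference of -2.07 (SE 0.414, limma adjusted p = 0.0445), and AT5G12050, a difference of -1.92 (SE 0.34, limma adjusted p = 0.0279). The probe set 257008_at was thus the 1 member called in both water states. At an unadjusted p under 0.05 the watered comparison had 15 members (12.6% of all probe sets). The median watered difference was -0.40 over members and 0.04 over all probe sets, with 63 of 90 below 0. Centring each array gave -0.49 and -0.06. Both watered atx1 arrays lay below both WT arrays for 35 members and above them for 9, where 19.4% and 23.6% of all probe sets did so. Without watered WT replicate 1 the member median was -0.14, and 1 member was called.

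**Figure D4:**
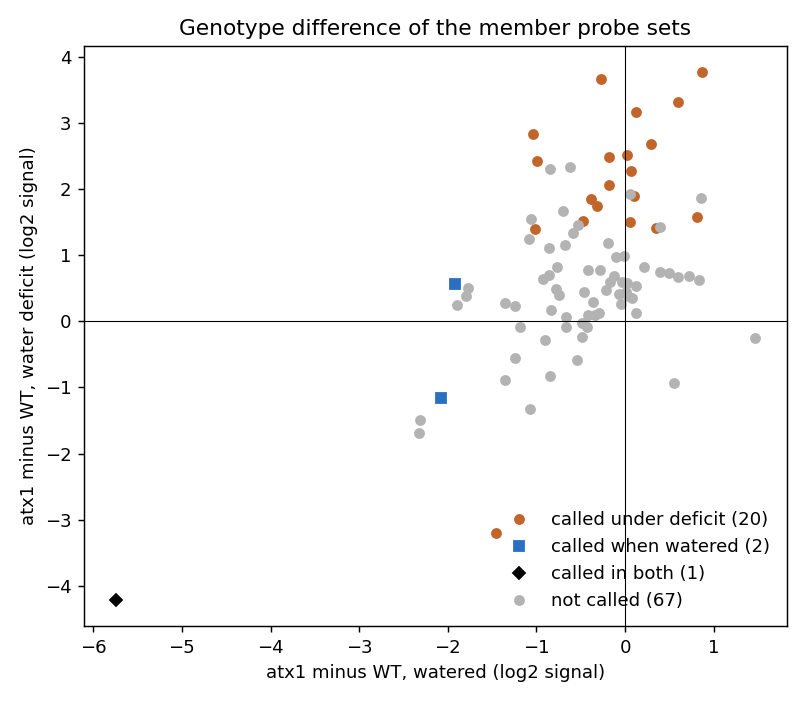
The atx1-minus-WT difference of each member in watered plants (x axis) and under deficit (y axis), both in log2 signal, coloured by the limma call. Most points lie left of 0 and above 0. The 20 members called under deficit alone lie at 1.40 or above except AT3G05730 at -3.20, and 257008_at stands apart at the lower left.

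Leaving out an array of WT or atx1 under deficit leaves 1 array in that group, which is then assumed to vary like the other groups, and the tests lose precision. Under deficit 5 of the 21 called members were called whichever array was left out, namely 247162_at, 266790_at, 257008_at, 259892_at and AT3G18050. The count was 5 without WT replicate 1, 12 without WT replicate 2, 9 without atx1 replicate 1 and 25 without atx1 replicate 2. The share called among all probe sets was 2.22%, 5.79%, 3.9% and 10.1% in these 4 fits, against 12.1% with every array. The median member difference was 0.63, 0.70, 0.45 and 0.90 in them, against 0.64. Without WT replicate 1 the limma adjusted p was 0.066 for AT5G63180, 0.0511 for AT4G23820, 0.0802 for AT1G29660, 0.0848 for AT2G45180, 0.131 for XTH16, 0.197 for AT1G73600, 0.222 for AT1G49750, 0.181 for 253040_at and 0.196 for AT3G05730. Without WT replicate 2 the calls of XTH16 (0.0785), AT1G73600 (0.129), 253040_at (0.0825) and AT3G05730 (0.112) ended too. Without atx1 replicate 1 those of XTH16 (0.111), AT1G73600 (0.142), AT1G49750 (0.175), AT2G45180 (0.054), 253040_at (0.166) and AT3G05730 (0.114) ended. AT3G05730 was also not called without atx1 replicate 2 (0.12) or either MYO-OX deficit array (0.0552 and 0.0552). AT1G73600 was not called without either watered atx1 array (0.0567 and 0.0567). AT1G33811 was not called without WT replicate 1 (0.0788), and TBL45 was not called without WT replicate 1 (0.179), WT replicate 2 (0.0733) or atx1 replicate 1 (0.154), nor after centring (0.051). The call of AT1G62500 ended in 10 of the 12 cases, with adjusted p up to 0.293. In watered plants 257008_at was called whichever array was left out. AT5G12050 was not called without watered WT replicate 1 (0.178), either watered atx1 array (0.167 and 0.0867) or either WT deficit array (0.0623 and 0.0623). Fitted on its own 4 arrays, the watered comparison had no member called by limma (15 at an unadjusted p under 0.05 in the fit of all arrays), and the adjusted p of 257008_at was 0.0615. The call of 262947_at ended in 8 of the 12 cases, with adjusted p up to 0.236. It also ended with the replicate number as a block (0.0555) and with the spiked controls as a covariate (0.057).

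The atx1 deficit arrays were those with the largest GAPDH difference between 3' and 5' probe sets, and with the brightest spiked controls. With the GAPDH difference as a covariate, 9 members were called under deficit, 6 higher and 3 lower, and 7 of them were among the 21. The member median was then 0.13, and 6.42% of all probe sets were called. Of the 14 members no longer called, AT1G29660 (0.0992), AT5G63180 (0.0753), AT2G45180 (0.0996), XTH16 (0.207), AT1G73600 (0.317), AT1G49750 (0.197), AT1G33811 (0.0617), AT1G62500 (0.453), TBL45 (0.267) and 253040_at (0.314) are given with limma's adjusted p in brackets. AT4G23820 and 247162_at were called at 0.0237 and 0.0209. With the spiked controls as a covariate 17 members were called, 13 higher and 4 lower, and 7.85% of all probe sets. Only 12 of the 21 were among these 17. The 9 calls that ended were those of XTH16 (0.0914), AT1G73600 (0.139), AT1G49750 (0.0848), TBL45 (0.11), AT1G62500 (0.207), AT3G52500 (0.125), 253040_at (0.123), 246004_at (0.103) and 247218_at (0.105), with limma's adjusted p in brackets. The part of RNA integrity in these differences was not tested.

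MYO-OX was compared with WT in the same way, and limma called 0 members in either water state, as it called 0% of all probe sets. At an unadjusted p under 0.05 there were 7 members under deficit and 5 in watered plants, where 0.646% and 2.66% of all probe sets reached it. The differences under deficit ran from -0.52 to 2.22 with a median of 0.36, against 0.03 over all probe sets, and 72 of 90 lay above 0. With the GAPDH covariate the median was 0.18 with 55 above 0, and with the spiked controls as a covariate 0.19 with 60 above 0. Both MYO-OX arrays lay above both WT arrays for 32 members under deficit and below them for 4, where 13.7% and 10.1% of all probe sets did so. In watered plants the differences ran from -0.78 to 1.72 with a median of 0.19, against 0.01 over all probe sets, and 61 of 90 lay above 0. Both watered MYO-OX arrays lay above both WT arrays for 20 members and below them for 2, where 11.1% and 11.4% of all probe sets did so. That median was 0.08 after repeated quantile normalization and -0.12 without watered WT replicate 2. With all arrays limma called no member between MYO-OX and WT, and differences of this size are not shown to be absent. The watered MYO-OX replicates agreed least, with a correlation of 0.928 across probe sets against 0.968 to 0.987 in the other groups. Their spread enters the estimate that all comparisons share. Without watered MYO-OX replicate 2, 2 members were called higher in watered MYO-OX, where 1.8% of all probe sets were called.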

How the data were processed

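ATH1 arrays were hybridized with biotinylated cRNA made from rosette RNA. The values used are log2 signals that the authors made by robust multi-array averaging (RMA), per the submitters' processing notes, and deposited as 1 table of 12 arrays. Its version is one detail not given in the sources used here. Controls (64 probe sets) were set apart and the other 22746 kept, with no filter. The annotation table listed 1 gene for 13513 of these, several for 503 and none for 8730. Locus codes, symbols, gene lengths and gene order came from the TAIR10.1 annotation, whose start coordinates were used to order the genes. The number of arrays limits the precision.

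Members were found by the rule with group means. The members, the gene lists and the naming rule were chosen with earlier results of these data known. The 6 group means were estimated together by limma 3.58.1 under R 4.3.3 (6 residual and 2.34 prior degrees of freedom), giving 4 comparisons of genotypes within a water state. Two-sided p-values carry a Benjamini-Hochberg adjustment over all 22746 probe sets within a comparison. The SE is limma's. The procedure was tested on simulated data. Named with every array are the 20 members with 1 gene and the lowest mean difference over the genotypes, where a locus code counted as a name. The called members (up to 10 per comparison, by size), members of the lists and probe sets at the threshold are named too. Other members named by family were picked after their values were seen.

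Alternatives were median centring, a replicate block, repeated quantile normalization, omission of the dimmest 40%, a robust prior with an intensity trend, covariates from the hybridization and GAPDH control probe sets, only the arrays of the comparison, other thresholds and each array left out in turn. Replicates are biological per the labels, which do not say whether plants were pooled. Nothing but the replicate number ties arrays of different groups. No sequences were used here.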

Additional observations from a re-analysis of the deposited data

Results flagged for a closer look

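For 18 members every atx1 array lay on one side of both WT arrays under deficit and on the other side when watered, and the turn itself was not tested. In 16 of them atx1 lay above WT under deficit and below it when watered, and in 2 the reverse held. Of all probe sets 2.2% and 2.42% did so. The members were chosen by the difference between water states, of which such a turn is a part, and 50 of them lay above WT under deficit and 35 below it when watered, so nothing is read from the count. The atx1-minus-WT differences of those described in the report follow, on the log2 scale. AT1G29660 had 2.84 under deficit and -1.04 when watered, and AT1G33811 had 1.40 under deficit and -1.01 when watered. AT5G48490 had 1.24 under deficit and -1.09 when watered. All 3 are genes for secreted lipases or lipid transfer proteins. TBL45 had 1.52 under deficit and -0.48 when watered, AT3G50270 had 0.78 under deficit and -0.42 when watered, and AT5G12050 had 0.57 under deficit and -1.92 when watered. AT2G44210 and AT3G18050 had 1.86 under deficit and -0.38 when watered, and 2.06 under deficit and -0.19 when watered, in that order. The probe sets 259892_at and 246004_at had 1.74 under deficit and -0.32 when watered, and 2.42 under deficit and -0.99 when watered, in that order. The glutaredoxin family gene AT1G06830 turned the other way, with -0.25 under deficit and 1.46 when watered. For AT3G18050 the MYO-OX arrays also changed side, with MYO-OX-minus-WT differences of 0.98 under deficit and -0.11 when watered.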

How the results depend on the processing

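With each array centred, quantile normalization repeated or dim probe sets left out, 89, 97 and 90 probe sets met the rule, of which 87, 87 and 90 were among the 90 members. Thresholds of -1.5, -2.5 and -3 gave 270, 33 and 17. Leaving out 1 array gave 70 to 153 probe sets. For atx1 against WT under deficit the count of 21 called members became 9 with the GAPDH covariate and lay between 17 and 29 under the other settings that kept all 12 arrays. It was 20 when limma saw the arrays compared alone and 5 to 25 with 1 array left out. In watered plants the count of 3 became 0 when those 4 arrays were fitted alone and was 1 to 4 with 1 array left out. MYO-OX against WT stayed at 0 members called by limma in both water states under the settings with all arrays kept, and reached 2 in watered plants with 1 array left out (0 to 0 under deficit). Over the 24 called differences, 381 of 480 alternative fits kept the call, 99 did not, and none changed direction. The replicate number paired nothing that the labels describe. Deviations of same-numbered arrays correlated between the groups compared at -0.27 (atx1) and -0.29 (MYO-OX) under deficit and at 0.51 and 0.56 in watered plants, across probe sets. With the replicate block, 29 members were called between atx1 and WT under deficit (14.9% of all probe sets, against 12.1% without it) and 2 in watered plants (2.71%, against 2.2%), and 0 between MYO-OX and WT in either state. The cause of these changes was not tested. Fewer arrays in a compared group make its mean less precise by construction. Leaving out any array also changes the estimate of spread that the groups share, so counts can rise or fall.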
